A study of Homo sapiens with 4 samples.

Results

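Mitochondrial ribosomal protein genes carry symbols that begin with MRPL (large subunit) or MRPS (small subunit), followed by a number. Skipped exon events of these genes were taken by that symbol pattern from a table of 65601 events, and those with a mean of at least 20 junction reads over the 4 libraries were kept. This gave 301 of 334 events, on 205 exons of 71 genes, among 54503 tested events of 9999 genes in all. By subunit, 197 events of 44 genes belonged to the large subunit, 102 events of 25 genes to the small subunit, and 2 events to the pseudogenes MRPL45P2 and MRPS31P5. MRPS18A and MRPS30 are counted with the large subunit, where their proteins sit in the assembled ribosome despite the symbol. MRPS36 is counted with the small subunit by its symbol, and whether its protein belongs to the ribosome was not examined here.

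The study asked how exon use differs in HEK293T cells, an established human embryonic kidney line, when the C/D box small nucleolar RNA SNORD89 is targeted. One group of 2 libraries had a MOE gapmer, an antisense oligonucleotide (ASO) that directs RNase H to the paired RNA, at 70 nM with RNAiMAX, and the other 2 libraries are marked as untreated. Medium was changed at 24 h, RNA was taken at 48 h, and poly(A) RNA was sequenced in pairs of 150 bases. The labels call the libraries biological replicates. The untreated libraries carry the same transfection text in their labels, so whether they received the lipid reagent cannot be told, and no control ASO is named. The table holds 2 sets of 2 libraries, and neither its headers nor the labels tie a set to a treatment. Its name puts SNORD89 before the group without ASO, but does not say that the sets follow that order. Every direction below is therefore the first set against the second set. Libraries 1 and 2 of a set are named by their place in the table, which pairs nothing. The level of SNORD89 and markers of the cell line were not analysed here.

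Mitochondrial ribosomes make the few proteins that mitochondrial DNA encodes, which are core subunits of the respiratory chain and of ATP synthase. All of their proteins are encoded in the nucleus, made in the cytosol and imported, and they join ribosomal RNAs that mitochondrial DNA encodes. Some of the proteins have bacterial counterparts and others are found only in mitochondria. A skipped exon event consists of a middle exon and its neighbours, and its inclusion level is the fraction of transcripts that keep the middle exon, estimated from reads across the junctions.

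MRPL9, MRPS18C, MRPL33, MRPL22 and MRPL2 gave well covered exons that these cells both kept and skipped, and their sequences are shown because the values below turn on them. Each is written 5′ to 3′ on the coding strand, with the skippable exon in capitals and 12 bases of each neighbouring exon in lower case. Coordinates are those of the table (GRCh37, called hg19 in the submitters' processing notes), and letters come from GENCODE release 29 transcripts matched by exon length and spacing. The MRPL9 exon lies at chr1:151733927-151734028 on the minus strand, and is exon 5 of 7. The MRPS18C exon lies at chr4:84379499-84379582 on the plus strand, and is exon 3 of 6. The MRPL33 exon lies at chr2:27997291-27997397 on the plus strand, and is exon 3 of 4. The MRPL22 exon lies at chr5:154330363-154330498 on the plus strand, and is exon 3 of 7. A shorter form of it with the same end, which had more inclusion reads, is described below. How far the longer form shown here was itself used was not separated. The MRPL2 exon lies at chr6:43023283-43023356 on the minus strand, and is exon 6 of 7.
MRPL9: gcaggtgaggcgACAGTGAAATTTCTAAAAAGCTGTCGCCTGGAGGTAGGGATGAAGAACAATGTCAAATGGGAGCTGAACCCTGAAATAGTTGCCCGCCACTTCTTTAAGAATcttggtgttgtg
MRPS18C: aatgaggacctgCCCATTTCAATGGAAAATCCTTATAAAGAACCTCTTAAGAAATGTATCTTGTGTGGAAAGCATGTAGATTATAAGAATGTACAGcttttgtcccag
MRPL33: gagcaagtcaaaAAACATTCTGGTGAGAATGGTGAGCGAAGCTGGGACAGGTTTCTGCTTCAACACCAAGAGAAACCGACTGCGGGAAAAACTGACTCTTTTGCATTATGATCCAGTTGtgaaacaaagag
MRPL22: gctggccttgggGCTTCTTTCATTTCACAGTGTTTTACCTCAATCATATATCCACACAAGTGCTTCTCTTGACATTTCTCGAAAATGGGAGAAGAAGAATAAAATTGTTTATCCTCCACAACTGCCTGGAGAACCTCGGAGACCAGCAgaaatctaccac
MRPL2: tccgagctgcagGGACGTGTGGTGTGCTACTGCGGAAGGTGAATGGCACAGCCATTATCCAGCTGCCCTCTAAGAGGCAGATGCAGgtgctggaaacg

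The exons differ in what skipping does to the reading frame. The MRPL9 exon has 102 nt and the MRPS18C exon 84 nt, and both keep the frame, so the skipped forms encode 233 residues in place of 267 for MRPL9 and 114 in place of 142 for MRPS18C. The exons of MRPL33 (107 nt), MRPL22 (136 nt) and MRPL2 (74 nt) shift it. Skipping in MRPL33 gives a reading frame of 54 residues in place of 65. In MRPL22 and MRPL2 the shifted frame soon meets a stop codon, given in capitals after the junction that skipping makes, with 30 bases before the junction.
MRPL22 skipped: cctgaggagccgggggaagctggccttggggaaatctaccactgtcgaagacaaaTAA
MRPL2 skipped: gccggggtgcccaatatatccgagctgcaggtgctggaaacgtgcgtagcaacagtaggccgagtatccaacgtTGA

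In MRPL22 the stop codon begins after 25 nt of the shifted frame beyond the junction, and it lies 189 nt before the last junction of the skipped transcript. The reading frame then has 34 residues, counting those encoded after the junction in the shifted frame. This is in place of 212 with the 136 nt form, or of 206 with the shorter form of 118 nt. Stop codons far upstream of the last junction are known to expose an mRNA to nonsense-mediated decay, which was not measured here. In MRPL2 the stop codon begins after 44 nt beyond the junction, inside the last exon. The reading frame then has 225 residues in place of 305, counted in the same way.

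Most exons of mitochondrial ribosomal protein genes were almost always kept. The median inclusion level over the 301 events was 0.990, beside 0.983 over all tested events. Inclusion was above 0.95 in 207 events (68.8%, beside 66.1% of all tested events), under 0.05 in 42 (14.0%, beside 9.30%) and between these bounds in 52 (17.3%, beside 24.6%). The 52 events between the bounds, called alternative below, came from 18 genes and 33 exons. Between them, MRPL55 with 19 and MRPL48 with 7 held 26 of these. In 34 genes every tested event was above 0.95.

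These events were deeply covered, with a median of 846.5 reads per library and event, beside 190 over all tested events. Their median per library was 774 and 792 reads for the libraries of the first set, against 891 and 945 for the second set. Of the 301 events, 266 had a mean of at least 200 reads. At a mean of at least 500 reads, 167 events were above 0.95, and their median inclusion was 0.997. Each of them had skipping reads in at least 1 library. Whether events without any skipping read were left out of the table is not known here. The count therefore does not show that every such exon is sometimes skipped.

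The deepest events show how rarely a core exon was left out. MRPL12, whose protein forms the stalk of the large subunit, had 8435 reads per library on the 187 nt exon at chr17:79671274-79671460. Its skipping reads numbered 5 and 8 in the libraries of the first set, against 3 and 0 in the second set. MRPL20, an early-binding large subunit protein in bacteria, had 6215.25 reads per library on the 111 nt exon at chr1:1342289-1342399, with 4 and 3 skipping reads in the first set against 2 and 0 in the second set. MRPL23, a protein near the exit of the nascent chain tunnel, had 5985.75 reads per library on the 83 nt exon at chr11:1973357-1973439, with 4 and 1 skipping reads against 0 and 0. In all 3 genes the first set held the larger numbers of skipping reads, but with so few reads the quasi-binomial model, described with the comparison of the sets, gave adjusted p-values of 0.696 to 0.770. Inclusion was between 0.998 and 1 in every library.

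At the other end lay annotated exons that the cells hardly used. The 8 with the lowest mean inclusion belonged to MRPL46, MRPL27, MRPL55 (2 events), MRPS35, MRPS27, MRPS22 and MRPL37, at mean levels from 0.000181 to 0.00128. The largest number of inclusion reads was in the 145 nt exon of MRPL37 at chr1:54673033-54673177, which belongs to a non-coding transcript, with 12 and 4 reads in the first set against 3 and 0 in the second set, of 1663 to 2701 reads per library. The 30 nt exon of MRPL27 at chr17:48446199-48446228 had 4 inclusion reads in library 1 of the second set and none in the others. In the MRPL37 exon the sets did not overlap, and the quasi-binomial model gave an unadjusted p of 0.0237 and an adjusted p of 0.643. With counts this small, none of the 8 passed the adjusted threshold.

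Frame and use can be set side by side for the exons that lie wholly in coding sequence. Of 131 such exons, 45 (34.4%) had a length divisible by 3. Among the exons above 0.95 it was 41 of 119 (34.5%), and among the alternative ones it was 2 of 18 (11.1%), those of MRPL9 and MRPS18C. The alternative exons outside this group comprised 6 in a 5′ UTR, 6 partly coding, 1 in a non-coding transcript and 2 not matched. An exon with events both above 0.95 and among the alternative ones is counted in both groups. These values are given as counts only, since some exons of MRPL55 overlap one another and events of 1 gene share reads.

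No event of a mitochondrial ribosomal protein gene was called different between the sets. By the authors' deposited table, with a false discovery rate (FDR) under 0.05 and inclusion that differed by at least 0.1, 0 of 301 events were called, beside 1477 of 54503 tested events (2.71%). At a mean of at least 200 reads it was 0 of 266, beside 69 of 26473 (0.261%), so at that depth a count near 0 is also the background. An unadjusted p under 0.05 in the authors' deposited table was found for 21 of the 301 events (6.98%), beside 7779 of all (14.3%). Of these 21, 18 were in large subunit genes and 3 in small subunit genes. The quasi-binomial model, which counts the scatter between libraries as error, gave 0 events at an adjusted p under 0.05, beside 16 of 54503 (0.0294%), and 16 at an unadjusted p under 0.05, beside 3664 (6.72%). Without library 1 of the second set it gave 10 of the 301, beside 1754 of all. limma on the log2 ratio of reads gave 0 and 7 events, beside 2654 of all (4.87%) at the unadjusted threshold. As this fit also recovered no changed exon in the test on simulated data, its count of 0 is no measure of change.

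The sizes of the differences were small. The median absolute difference was 0.003 in inclusion, beside 0.011 over all tested events, and 137 events lay above 0 and 136 below it. At a mean of at least 200 reads the largest absolute difference was 0.078. A like-for-like comparison uses the 28 alternative events with at least 200 reads, on 20 exons of 13 genes, beside 3249 such events in the table. None of the 28 was called by the authors' deposited table, beside 69 of the 3249 (2.12%). Their median absolute difference was 0.018, beside 0.025, and 26 of 28 (92.9%) were under 0.05, beside 78.0%. Between the libraries of 1 set the median gap in the 28 events was 0.0228 in the first set and 0.0195 in the second set. These are gaps between single libraries, while the difference between the sets is one of means of 2 libraries. Their sizes therefore cannot be compared directly. The sets did not overlap in 10 of the 28 (35.7%), beside 1145 of the 3249 (35.2%).

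**Figure D1:**
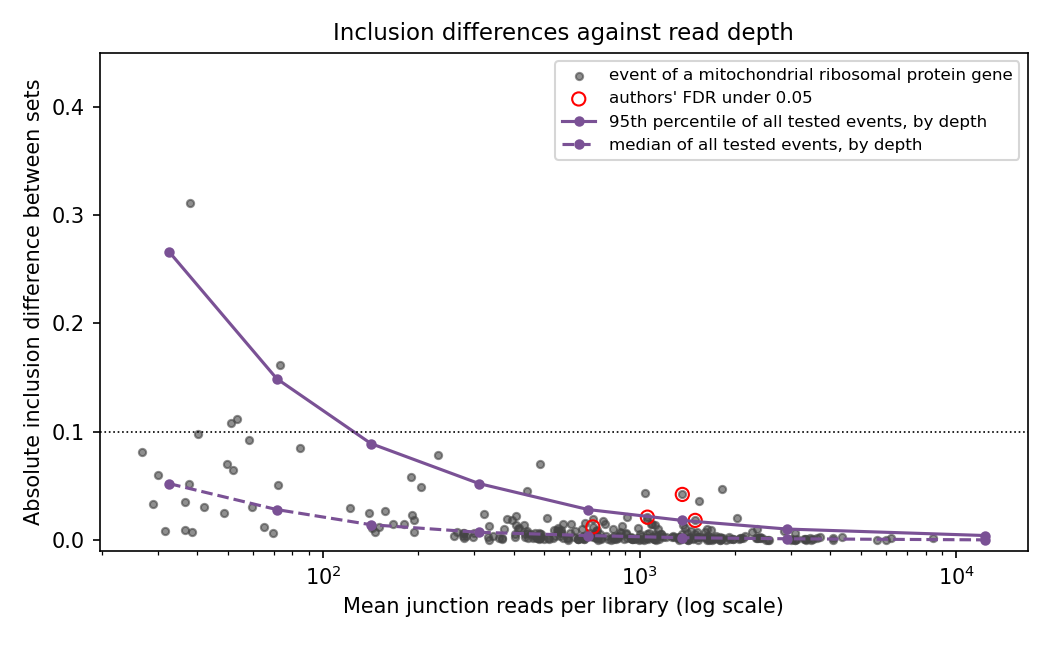
Absolute difference in inclusion level between the sets (vertical axis, fraction of 1) against the mean number of junction reads per library (horizontal axis, log scale) for the 301 events, with events of FDR under 0.05 circled and with the median and the 95th percentile of all tested events by depth as lines. The 4 events above the dotted line at 0.1 all have fewer than 100 reads, and the 4 circled events all lie under 0.05.

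**Figure D2:**
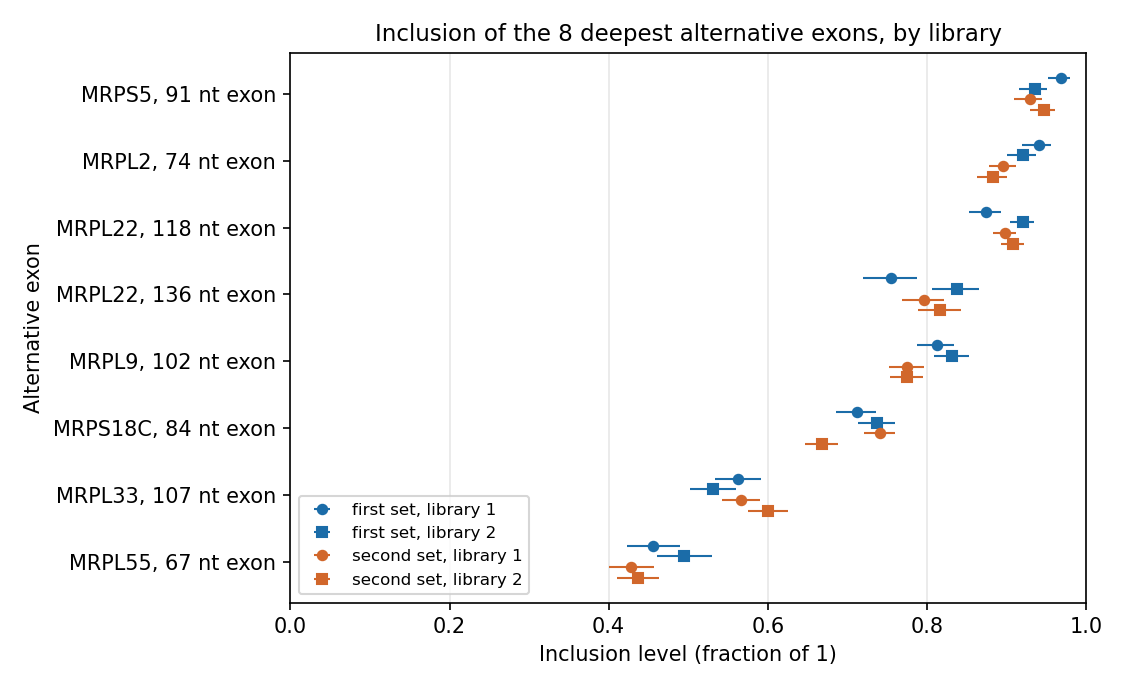
Inclusion level (horizontal axis, fraction of 1) of the 8 alternative events with most reads, 1 point per library, with bars for the 95% Wilson interval of counting error. The levels run from 0.429 in MRPL55 to 0.969 in MRPS5. The points of the 2 sets are interleaved in MRPS18C, MRPS5 and both MRPL22 events.

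MRPL33, a small protein of the large subunit, had the most evenly split coding exon, the 107 nt exon shown above. Its inclusion level was 0.563 and 0.531 in the libraries of the first set, against 0.566 and 0.601 in those of the second set, from 1256, 1279, 1884 and 1732 reads. The lowest level of the second set lay just above the highest of the first set, so the sets did not overlap. The quasi-binomial log2 odds ratio of the first set to the second set was -0.21 (95% interval -0.47 to 0.05), with an adjusted p of 0.770, and the authors' deposited table gave a difference of -0.036 at an FDR of 0.828. Omitting 1 library at a time gave differences from -0.0538 to -0.0192.

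MRPS18C encodes a small subunit protein with a bacterial counterpart. Its 84 nt exon was kept at 0.712 and 0.738 in the first set and at 0.741 and 0.668 in the second set, from 1557, 1745, 2473 and 2369 reads. The libraries of the second set stood at both ends of the range, so the sets overlapped. The log2 odds ratio was 0.15 (95% interval -0.11 to 0.41), and the authors' deposited table gave a difference of 0.020 at an FDR of 1. Its sign turned on 1 library, since it was -0.0165 without library 2 of the second set and 0.0573 without library 1 of that set.

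MRPL9 encodes a large subunit protein with a bacterial counterpart. Its 102 nt exon was kept at 0.812 and 0.832 in the first set and at 0.775 and 0.775 in the second set, from 1551, 1604, 1973 and 2139 reads. Both libraries of the first set were higher, and the gap between the sets was larger than the gaps within them. The quasi-binomial log2 odds ratio was 0.43 (95% interval 0.10 to 0.75), with an unadjusted p of 0.0103 and an adjusted p of 0.545. The authors' deposited table gave a difference of 0.047 at an FDR of 0.151. This exon thus passed no threshold set over all events.

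MRPL22, a large subunit protein that lines the exit tunnel, had the same exon with an alternative start. The event of the 136 nt form had levels of 0.755 and 0.838 in the first set and of 0.797 and 0.817 in the second set. The libraries of the first set stood at both ends. The shorter form of 118 nt, at chr5:154330381-154330498, was read 2256.25 times per library at a mean inclusion of 0.901. It shares its skipping reads with the longer one, which numbered 128, 92, 165 and 133. Both forms have the same end and next exon, so reads across that junction count as inclusion of both. Inclusion reads numbered 756, 911, 1238 and 1136 for the longer form, and 1598, 1913, 2620 and 2376 for the shorter. Reads of the longer form alone were not separated, so its level does not measure its own use. The authors' deposited table gave differences of -0.010 and -0.007, both at an FDR of 1. Without library 1 of the first set they turned to 0.0312 and 0.0169.

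MRPL2, which belongs to the catalytic region of the large subunit, had 2 of the 4 events with an FDR under 0.05 in the authors' deposited table, beside 3115 of all tested events (5.72%). The 74 nt exon was kept at 0.941 and 0.921 in the first set and at 0.896 and 0.883 in the second set, from 919, 1126, 1781 and 1626 reads. Both libraries of the first set lay above both of the second set. The authors' deposited table gave a difference of 0.042 at an FDR of 0.0239. The quasi-binomial log2 odds ratio was 0.71 (95% interval 0.15 to 1.27), with an adjusted p of 0.545. The neighbouring exon of 111 nt, at chr6:43023635-43023745, keeps the frame, and was kept at 0.983 and 0.988 in the first set and at 0.979 and 0.957 in the second set. Here too the sets did not overlap, with library 2 of the second set the lowest, and the authors' deposited table gave a difference of 0.018 at an FDR of 0.0312. Without library 2 of the second set the difference was 0.00624. Skipping reads of this exon numbered 11, 9, 23 and 42. Reads across the junction between the 2 neighbouring exons count as inclusion of both, so the 2 events are not separate measurements.

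MRPS9 and MRPL48 gave the other events under that FDR. MRPS9 encodes a small subunit protein with a bacterial counterpart, and its 180 nt exon, at chr2:105665629-105665808, keeps the frame. It had 0 skipping reads of 974 and of 1004 in the first set (Wilson lower bound of inclusion 0.992 in both), and 2 of 956 and 25 of 1295 in the second set. Nearly all skipping reads thus came from library 2 of the second set, where inclusion was 0.962, beside 0.996 in library 1. The authors' deposited table gave a difference of 0.021 at an FDR of 0.0300. The difference was 0.00418 with that library omitted and 0.0379 without library 1 of the second set. The quasi-binomial adjusted p was 0.180, the lowest among the 301 events.

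MRPL48 encodes a mitochondria-specific large subunit protein. The event is a 156 nt exon of its 5′ UTR, at chr11:73500380-73500535, kept at 0.014 and 0.027 in the first set and at 0.017 and 0.000 in the second set. Library 2 of the second set had 0 inclusion reads of 873 (Wilson upper bound 0.00220), and library 1 of that set lay between the libraries of the first set. The authors' deposited table gave a difference of 0.012 at an FDR of 0.0447. Without library 2 of the second set the difference was 0.0036, and without library 2 of the first set 0.00572.

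MRPL55 encodes a large subunit protein with a bacterial counterpart, and it had the most varied splicing of these genes, mostly upstream of the coding sequence. The deepest of its alternative events was a 67 nt exon of the 5′ UTR at chr1:228296656-228296722. It was kept at 0.456 and 0.495 in the first set and at 0.429 and 0.436 in the second set, from 833, 828, 1167 and 1333 reads. Both libraries of the first set were higher, and the authors' deposited table gave a difference of 0.043 at an FDR of 0.679. It was 0.0235 without library 2 of the first set. With other neighbouring exons the same exon formed 5 events, with mean inclusion from 0.454 to 0.899, so its level differed with the neighbours that the reads joined. Another exon, of 38 nt, formed 6 events with mean inclusion from 0.0557 to 0.227. In MRPL48 a 125 nt exon at chr11:73528868-73528992 likewise ranged from 0.0452 to 0.571 over 3 events. These events share reads and are not separate measurements.

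MRPS5, a small subunit protein with a bacterial counterpart, had a 91 nt exon at chr2:95770385-95770475, exon 7 of 12, whose skipping shifts the frame. It was kept at 0.969 and 0.936 in the first set and at 0.929 and 0.948 in the second set. The sets overlapped, and the authors' deposited table gave a difference of 0.014 at an FDR of 0.823. The difference was -0.0029 without library 1 of the first set and 0.0305 without library 2 of that set.

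An absolute difference of at least 0.1 was seen in 4 events (1.33%, beside 3917 or 7.19% of all tested events), which are named here after their values were seen. All had few reads, at most 73.25 per library. The 127 nt exon of MRPL43 at chr10:102743705-102743831 was kept at 0.068 and 0.116 in the first set and at 0.111 and 0.696 in the second set, from 42, 41, 48 and 21 reads. One library, library 2 of the second set, was high, and the authors' deposited table gave a difference of -0.311 at an FDR of 0.240. The 74 nt exon of MRPL52 at chr14:23300173-23300246 was kept at 0.168 and 0.272 in the first set and at 0.285 and 0.479 in the second set. The sets did not overlap there, and the authors' deposited table gave a difference of -0.162 at an FDR of 0.279. The other 2 were events of MRPL55, which the authors' deposited table gives at 0.108 and 0.112.

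Library 2 of the second set stood farthest from the other libraries on 5762 of 13329 alternative events of the table, and on 17 of the 52 alternative events of these genes. Its median absolute gap was 0.0843 over the table and 0.0418 over these genes. In these genes library 2 of the first set came close, farthest on 15 of the 52, with a median absolute gap of 0.038. Among the 28 with at least 200 reads, library 1 of the first set was farthest on 11. Library 2 of the second set was farthest on 8 of these. The part of library 2 of the second set in differences other than those given without it was not tested.

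The minimum of 20 reads decided the count of calls. Below it lay 33 events, of which 4 had an FDR under 0.05 and a difference of at least 0.1 in the authors' deposited table (12.1%, beside 1082 of all 11098 events under the minimum, 9.75%). MRPS25 had such differences, 0.502 and 0.466, on overlapping exons of 177 and 88 nt with 10 and 12.75 reads per library. In the 177 nt exon the levels were 1 and 1 in the first set against 0.867 and 0.130 in the second set, so library 2 of the second set stood alone. MRPS2 had a difference of -0.553 on 143 nt and MRPS35 one of -0.336 on 140 nt in the authors' deposited table, at 13 and 12.5 reads per library. These genes are named after their values were seen. Nearest to the minimum, events of MRPL43 and MRPS28 stood just under it, at 15.5 and 17.25 reads, and events of MRPS31P5 and MRPL43 just above it, at 26.75 and 29 reads.

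Calls were also counted for other genes of mitochondrial translation, beside 2.71% of all tested events. Ribosomal proteins with other symbols gave 1 call among 45 events of 4 genes (2.22%), which is near that share. Translation factors gave 0 among 96 events of 13 genes, and assembly and rRNA factors 1 among 113 events of 21 genes (0.885%). Counts this small show no difference from all events. DAP3, a GTP-binding protein of the small subunit, had the first of these, on a 102 nt exon at chr1:155691308-155691409. It was kept at 0.891 and 0.919 in the first set and at 0.597 and 0.738 in the second set, from 74, 80, 49 and 92 reads. Both libraries of the first set were higher, and the authors' deposited table gave a difference of 0.238 at an FDR of 0.00571, with a quasi-binomial adjusted p of 0.581. MTERFD2, a factor of the mitochondrial transcription termination family that works in ribosome assembly, had the other, on a 499 nt exon at chr2:242038811-242039309. Its levels were 0.799 and 0.732 against 0.668 and 0.529, and the authors' deposited table gave a difference of 0.167 at an FDR of 0.0315. Cytosolic ribosomal protein genes gave 0 calls among 374 events of 73 genes, at a median of 20537.5 reads.

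Mitochondrial ribosomal protein genes took a smaller share of the summed junction reads of skipped exon events in the first set than in the second set. Most of them lay under the median gene. For each gene the tested event with most reads was taken. Its reads were expressed per 1000000 of the library's junction reads summed over all events (RPM). A read that serves several events counts once for each in this sum, and junction reads outside the events are not in it. These sums were 38613055 and 39012939 for the first set, against 42868431 and 43929373 for the second set. The median log2 difference, first minus second set, was -0.19 over the 71 genes and 0.28 over all 9999 genes, so the 71 genes lay 0.47 lower than the median gene on the log2 scale, and 67 of 71 were under it. By limma, 18 of the 71 (25.4%) were lower in the first set at an adjusted p under 0.05, beside 408 of all genes (4.08%), and 2 were higher (2.82%), beside 2697 (27.0%). All 18 were among the 25% of genes with most reads, which held 62 of the 71 genes, and there 369 of all 2500 genes (14.8%) were lower. In 40 genes (56.3%) both libraries of the first set were under both of the second set, beside 1685 of all genes (16.9%), and among the genes with most reads this held for 38 of 62 (61.3%), beside 41.5% of all. With TMM scaling, which brings the median of all genes to 0.02, the 71 genes had a median of -0.45, with 44 lower and 0 higher, beside 1515 (15.2%) lower and 1742 (17.4%) higher of all genes. Without library 1 of the first set only 1 of the 71 passed, beside 628 of all genes, while the median relative to all genes was -0.39. Such values are shares of a library in bulk RNA, so less RNA of these genes per cell and more RNA of other genes cannot be told apart.

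Both subunits lay on the same side. Over 44 large subunit genes the median log2 difference was -0.21, with 13 lower and 1 higher in the first set. Over 25 small subunit genes it was -0.16, with 5 lower and 1 higher. Proteins with bacterial counterparts had medians of -0.23 in the large subunit (28 genes) and -0.21 in the small subunit (14 genes), and mitochondria-specific proteins -0.21 (16 genes) and -0.14 (11 genes). The cytosolic ribosomal protein genes had a median of -0.37, with 38 of 73 lower. Mitochondrial translation factors had a median of 0.19 over 13 genes, assembly and rRNA factors -0.02 over 21 genes, and ribosomal proteins with other symbols -0.14 over 4 genes.

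Read depth and transcript length moved with this difference over all genes. With genes split into 4 groups of equal size, from fewest to most reads, the median log2 difference was 0.74, 0.52, 0.23 and -0.09, and the 62 genes in the group with most had a median of -0.21. The distance from the median gene was thus smaller among genes of like depth than over all genes. Split likewise by transcript length, from shortest to longest, the medians of all genes were 0.21, 0.13, 0.22 and 0.62, and those of the mitochondrial ribosomal protein genes were -0.31 (24 genes), -0.13 (21 genes), -0.27 (21 genes) and -0.12 (3 genes). Their values lay under those of all genes in each group of length. The part of depth, length and library composition in the difference was not tested further.

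**Figure D3:**
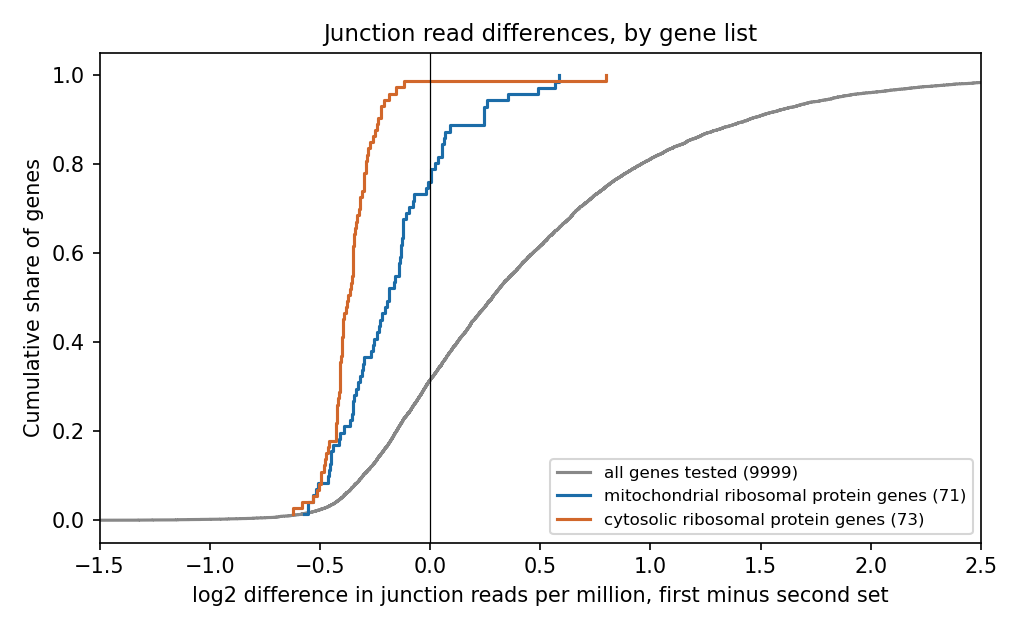
Cumulative share of genes (vertical axis) against the log2 difference in junction RPM, first minus second set (horizontal axis), for all 9999 genes tested, the 71 mitochondrial ribosomal protein genes and the 73 cytosolic ribosomal protein genes. The curve of the mitochondrial list, with its median at -0.19, lies between that of the cytosolic list at -0.37 and that of all genes at 0.28.

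MRPL23 had the lowest adjusted p among these genes. Its junction had 114 and 119 RPM in the first set, against 162 and 181 in the second set. Both libraries of the first set were lower, and limma gave a log2 difference of -0.55 (SE 0.12, adjusted p 0.000990), which is 1.47-fold more in the second set. Each omission of 1 library left this gene under the threshold.

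MRPL54, a mitochondria-specific large subunit protein, had 53.5 and 63.3 RPM in the first set, against 92.3 and 81.1 in the second set, a log2 difference of -0.57 (limma adjusted p 0.00148). MRPL11, at the base of the stalk, had 47.2 and 50.3 against 66.3 and 77.0 RPM, a log2 difference of -0.55 (limma adjusted p 0.00184). MRPL40, a mitochondria-specific protein, had 37.8 and 36.4 against 53.7 and 52.6 RPM, a log2 difference of -0.52 (limma adjusted p 0.00302). In each of these genes both libraries of the first set were lower than both of the second set.

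MRPL52, mitochondria-specific as well, had 66.4 and 82.2 RPM against 110.4 and 99.9, a log2 difference of -0.51 (limma adjusted p 0.00377). MRPS17, a small subunit protein that binds rRNA in bacteria, had 27.2 and 28.2 against 43.0 and 37.4 RPM, a log2 difference of -0.53 (limma adjusted p 0.00432). MRPL20 had 119 and 134 against 172 and 174 RPM (log2 difference -0.46), and MRPL12 had 164 and 178 against 219 and 253 (log2 difference -0.46). The sets did not overlap in any of these 4 genes. Without library 1 of the first set, the adjusted p rose above 0.05 in MRPL54 (0.108), MRPL11 (0.0680), MRPL40 (0.0557), MRPL52 (0.232), MRPS17 (0.0984), MRPL20 (0.190) and MRPL12 (0.142) by limma, while each remained lower in the first set.

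MRPL42 and MRPS35, both mitochondria-specific, were the only genes of the 71 that were higher in the first set by limma, and they are named as the 2 genes of that count. MRPL42 had 25.6 and 24.7 RPM against 18.03 and 15.98, a log2 difference of 0.57 (limma adjusted p 0.00552). MRPS35 had 29.6 and 31.2 against 20.4 and 22.9, a log2 difference of 0.49 (limma adjusted p 0.0104). Set against the median of all genes, which was 0.28, they were higher by less, and with TMM scaling the log2 differences were 0.31 and 0.23, with adjusted p of 0.127 and 0.231.

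**Figure D4:**
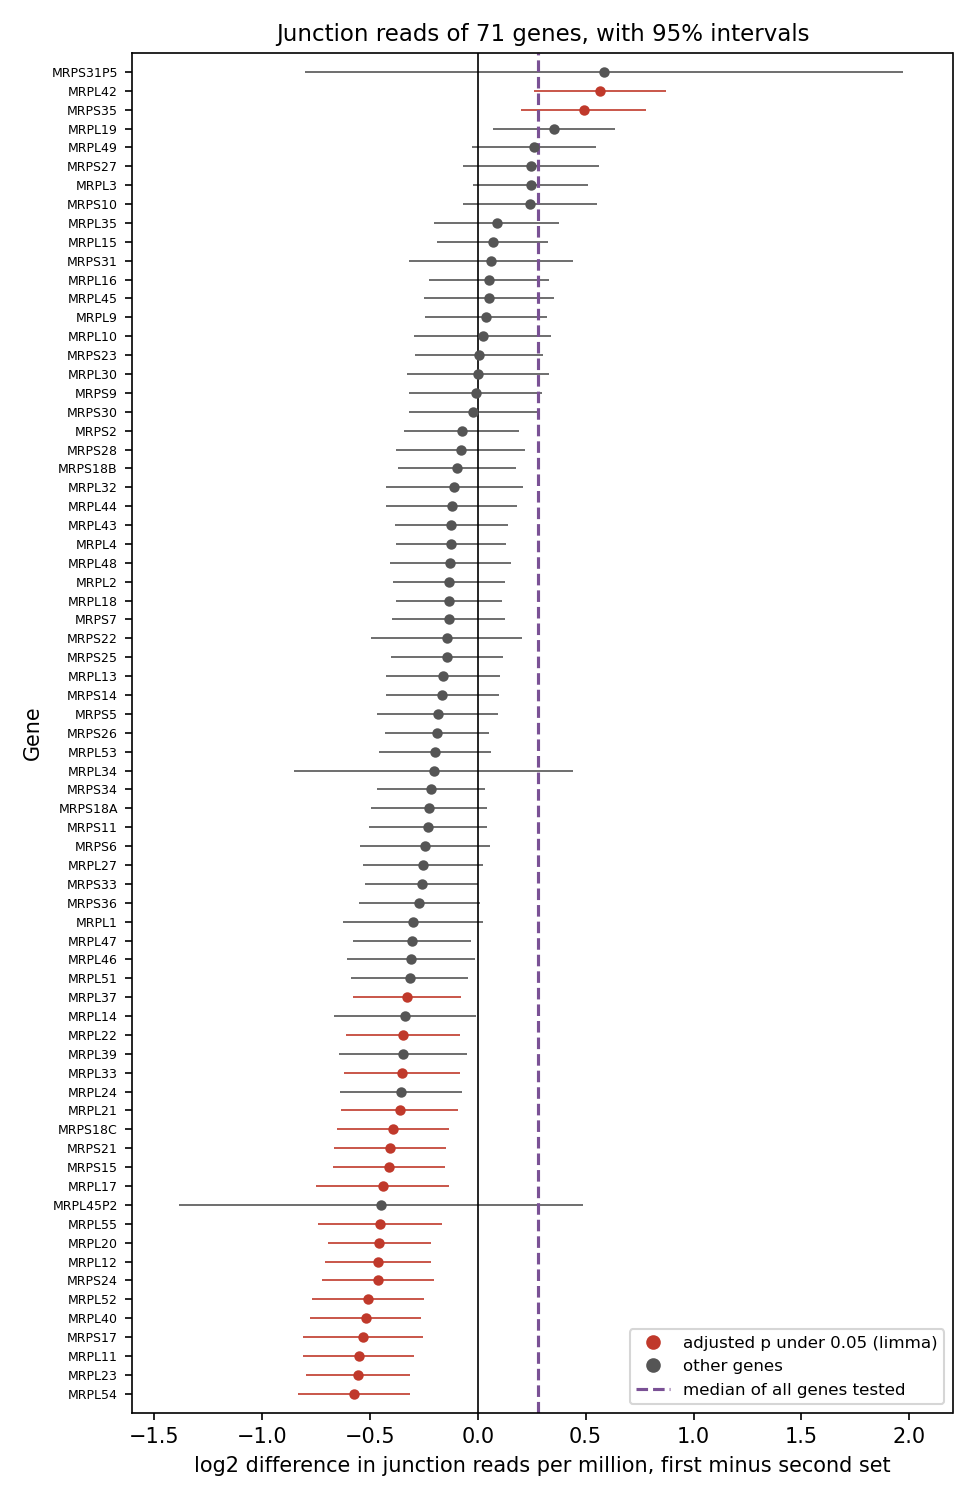
Log2 difference in junction RPM, first minus second set (horizontal axis), for each of the 71 genes (vertical axis), with 95% intervals from limma and the median of all 9999 genes as a dashed line. Genes with an adjusted p under 0.05 are in red, and 67 of the 71 points lie left of the dashed line at 0.28.

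Among the 5 genes with most alternative events, MRPL55 (19 events) and MRPS15 (3) were lower in the first set in junction reads by limma, with log2 differences of -0.45 and -0.41. MRPL48 (7 events), MRPS28 (4) and MRPS25 (3) did not pass the test, with log2 differences of -0.13, -0.08 and -0.14. Of the genes whose sequences are printed, MRPS18C (-0.39), MRPL33 (-0.35) and MRPL22 (-0.35) were among the 18 lower ones, and MRPL2 (-0.13) and MRPL9 (0.04) did not pass.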

How the data were processed

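Junction reads were compared between 2 sets of 2 HEK293T libraries. Per the submitters' processing notes, reads were handled with cutadapt and STAR on hg19. Versions, settings and the annotation release are not given in the sources used here. The deposited table has the rMATS layout for skipped exons, per the file headers. It holds counts of inclusion and skipping junction reads per library, inclusion levels as a fraction from 0 to 1 after division by form length, the authors' difference in inclusion, a score from -1 to 1, the authors' p-value per event and its FDR, and exon coordinates and form lengths. Inclusion levels recomputed from the deposited counts differed by at most 0.0005. The last position on chromosome 1, 249153271, lies beyond the end of that chromosome in GRCh38.

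The members, gene lists, thresholds and naming rule were chosen with earlier results of these data known. Events with a mean of at least 20 reads were kept. Calls from the authors' table needed an FDR under 0.05 and a difference of at least 0.1. A quasi-binomial model per event had its dispersion shared by limma 3.58.1 (R 4.3.3; shared value 2.66, floor 1). limma was also fitted with a trend to log2 inclusion ratios and to log2 junction reads of each gene's deepest event (pseudocount 0.5 reads). The latter were scaled to 1000000 of the library's junction reads summed over all events. The p-values of these fits were adjusted by Benjamini-Hochberg, over all tested events for inclusion and over all genes tested for junction reads. The authors' FDR was used as given. Since no source ties a library to a culture in the table, p-values measure only the spread between these libraries. Intervals on single libraries are Wilson 95% intervals, which cover counting error only.

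In simulated data for the first against the second set, on 54503 events with 200 changed by 0.3, the quasi-binomial model found 200 (6 false) with binomial noise and 185 (14 false) with the measured scatter, and limma on ratios found 0. For junction reads of 9999 genes limma found 195 of 200 (8 false). Changed events were drawn only from well covered events of intermediate inclusion, and changed genes only from well covered genes. Recovery of smaller changes, or of changes in events near full inclusion or near full skipping, was not tested.

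Exons were placed in GENCODE release 29 transcripts by length and spacing of the 3 exons, without converting coordinates. Of the 301 events, 215 matched on both sides, 74 on 1 side and 12 on neither. Named were all events with an FDR under 0.05, events with an unadjusted quasi-binomial p under 0.05 and no overlap among alternative exons, the 8 deepest alternative and 8 least included exons, the 3 deepest events, the 8 genes of lowest adjusted p for junction reads, and called events of the other translation lists. Alternatives were other read minima, other scalings and pseudocounts, no division by form length, and omission of each library. Python 3.11.15, pandas 2.3.3, numpy 2.4.6, scipy 1.17.1 and matplotlib 3.10.9 were used.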

Additional observations from a re-analysis of the deposited data

How the results depend on the processing

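The count of 0 calls from the authors' deposited table became 4 with a minimum of 10 reads (2026 of all events), 4 with no minimum (2559), and 4 at any size of difference, an alternative chosen after seeing the data (3115). It stayed at 0 under the other alternatives run, including the minimum of 200 reads, also chosen after seeing the data. The quasi-binomial count of 0 ranged from 0 to 10 when 1 library was omitted, with 10 without library 1 of the second set, and stayed at 0 in the other alternatives. The number of genes called for junction reads, 20, was 44 with TMM scaling and ranged from 1 to 25 when 1 library was omitted. Genes called lower, 18, were 44 with TMM scaling and from 1 to 21 on omission. The median log2 difference relative to all genes, -0.47, was -0.58 with reads summed over all events of a gene, and -0.56 to -0.38 on omission. Differences of exons that no test called turned sign on omission of 1 library in MRPS18C (-0.0165), MRPS5 (-0.0029) and MRPL22 (0.0312 and 0.0169). The 8 genes named by lowest adjusted p for junction reads kept their direction in every alternative run. No paired analysis was possible because the libraries of the table carry no replicate numbers. With 2 libraries a set, an exact permutation over libraries cannot go below p = 0.333, and the spread within a set rests on 1 gap.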
